A study of Mus musculus with 2 samples.

Results

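Gm2044 and Gm16201 are the 2 rows, of 20476 genes in the table, whose annotated transcripts span the Mir202 hairpin. They were chosen by position and name. Total testicular cells of adult mice of strain C57BL/CJ;ICR had been run as droplet-based 3′ single-cell libraries, 1 from miR-202-/- mice (KO) and 1 from wild-type mice (WT), after debris had been sorted away. Neither the number of animals pooled nor the extent of the miR-202-/- deletion was stated in the sources at hand. The libraries are joined in 1 table, and each barcode name ends in 1 or 2. No label or file used here ties either suffix to a genotype. No suffix was assigned from its values, no value below belongs to KO or WT, and no genotype comparison was made.

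Many microRNAs are cut from longer host transcripts: Drosha and its partner Dgcr8 release the hairpin in the nucleus, and Dicer1 trims it into the mature arms that Argonaute proteins carry to their targets. A target is recognised mainly through the seed at the 5′ end of the mature arm. In the testis, Sertoli cells are the somatic nurse cells of the tubule, and germ cells pass from spermatogonia through spermatocytes to round and then elongating spermatids. The microRNA miR-202 is known from gonads of several vertebrates, and in mouse testis it has been described in Sertoli cells and in germ cells.

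The mature arms are shown because the hairpin is what places both transcripts in this study. Capitals mark the seed, bases 2 to 8, in the RefSeq sequences, and let-7a-5p stands beside miR-202-3p for comparison.
miR-202-5p: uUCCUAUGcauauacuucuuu
miR-202-3p: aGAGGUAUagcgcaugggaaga
let-7a-5p: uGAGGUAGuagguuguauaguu
Bases 2 to 7 of miR-202-3p were shared with 12 other of the 1679 mature mouse names in the RefSeq table, 10 of them named let-7. Bases 2 to 8 were shared with 1 other, let-7j. The seed of miR-202-5p was shared with 0 other names. In the hairpin of 72 bases, both arms are in capitals.
Mir202 hairpin: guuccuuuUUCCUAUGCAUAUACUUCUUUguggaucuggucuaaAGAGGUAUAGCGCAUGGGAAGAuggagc

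Only Gm2044 carries the hairpin in its own RNA. In GENCODE M21 on GRCm38, Gm2044 is a lincRNA on the minus strand of chromosome 7, from 139957005 to 139958039, with 2 exons and a transcript of 911 bases. Mir202 lies on the same strand, from 139957689 to 139957760, and all 72 of its bases are in exon 2, as bases 156 to 227 of the transcript. A second annotated hairpin, mmu-mir-7686, also lies in exon 2. Gm16201 is a processed transcript on the plus strand, from 139950396 to 139978977. Its 3 annotated transcripts hold 709, 2330 and 642 bases. Gm2044 and Mir202 lie inside an intron of the 709-base transcript, from 139951953 to 139962799, and inside a longer intron of the 2330-base transcript. Exons of Gm2044 and Gm16201 shared 0 bases. The 2330-base transcript shared 590 exon bases with 6430531B16Rik-201, an annotated transcript of the protein-coding gene 6430531B16Rik on the opposite strand. Overlap with the other transcripts of that gene was not counted. Whether the authors' counting used strand or intronic reads was likewise not stated there. Intronic reads of Gm16201 and exonic reads of Gm2044 can therefore be told apart only as far as that counting used strand.

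**Figure D1:**
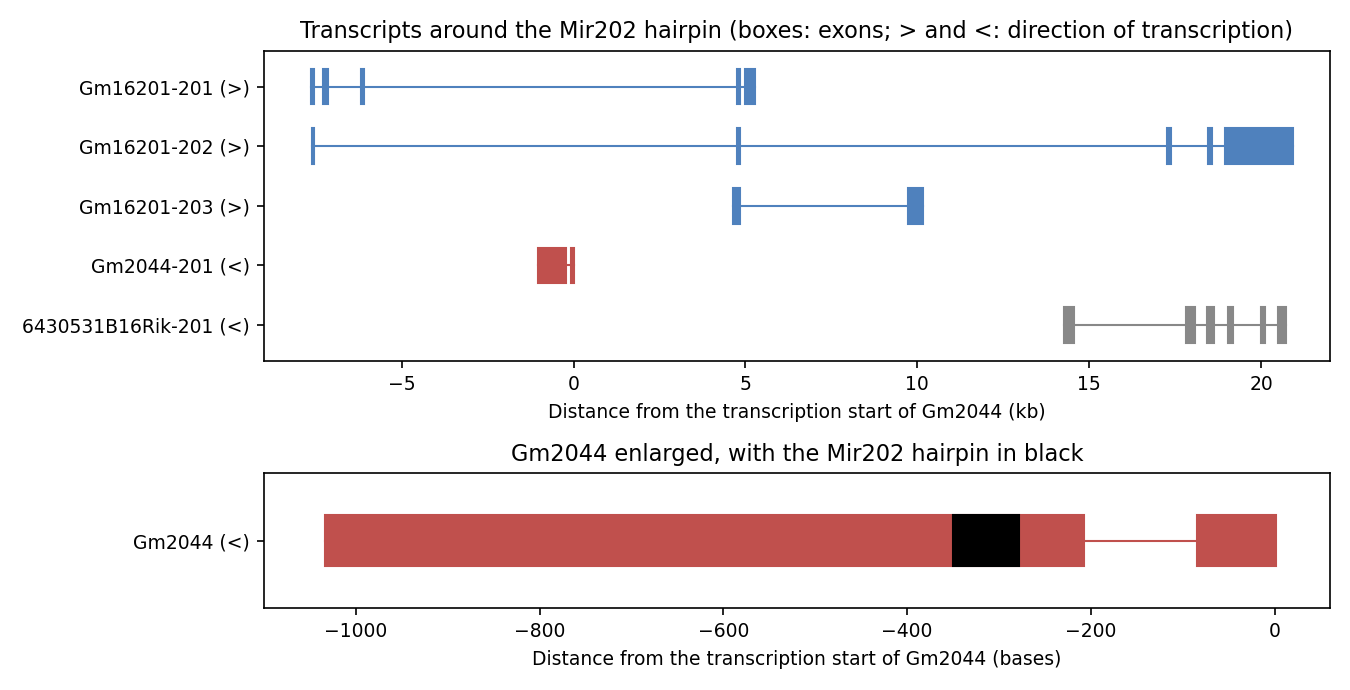
Annotated transcripts around the Mir202 hairpin, by distance from the transcription start of Gm2044 (upper plot in kb, lower plot in bases); boxes are exons and lines are introns. Gm2044, of 911 bases, lies in an intron of the 709-base and 2330-base transcripts of Gm16201, and the hairpin of 72 bases is in its second exon.

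The 3′ ends are shown because 3′ libraries count RNA close to its polyadenylated end. They are the last 60 bases of each GENCODE transcript, with a match to AATAAA in capitals.
Gm2044, 911 bases: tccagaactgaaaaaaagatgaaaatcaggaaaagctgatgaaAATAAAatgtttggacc
Gm16201, 642 bases: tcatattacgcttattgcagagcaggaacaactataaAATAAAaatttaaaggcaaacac
Gm16201, 709 bases: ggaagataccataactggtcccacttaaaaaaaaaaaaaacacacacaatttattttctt
Gm16201, 2330 bases: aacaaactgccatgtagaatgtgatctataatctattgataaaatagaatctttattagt
AATAAA stood in the last 50 bases of Gm2044 and of the 642-base Gm16201 transcript, on the transcript strand. Neither AATAAA nor ATTAAA was found there in the 709-base or 2330-base transcript. Of 141672 annotated transcripts, 26.6% held AATAAA in that window, 8.63% held ATTAAA and 33.8% held at least 1 of them. The hairpin lies 684 bases before the end of Gm2044. Mir202 itself has no row in the table, so the targeted microRNA was not measured, and a count of Gm2044 is a count of polyadenylated host RNA and not of miR-202.

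Suffix 1 held 12935 barcodes and 158740437 unique molecular identifiers (UMIs, each a counted RNA molecule), and suffix 2 held 15310 barcodes and 168967776 UMIs. A total of 73 barcode sequences occurred under both suffixes, 0.564% of suffix 1 and 0.477% of suffix 2. Cells were placed in 15 gates by marker genes alone, and 11295 barcodes passed exactly 1 gate. Another 16391 passed none, and 559 passed gates of more than 1 class and were left out. Of the markers, 12 of 14 were highest in their own gate for Sertoli cells, 10 of 12 for elongating spermatids and 11 of 12 for round spermatids, but only 3 of 11 for pachytene spermatocytes and 5 of 12 for differentiating spermatogonia. The endothelial gate held 12 barcodes and 0 UMIs of either transcript, and is not described further. A level is given in CPM, UMIs of the gene in every 1000000 UMIs of the gate. Brackets hold exact 95% intervals: Poisson for levels, Clopper-Pearson for shares and conditional binomial for ratios. With 1 library per suffix there was no test, and these intervals cover counting error only.

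Compared with germ gates, Gm2044 was a transcript of Sertoli-gated cells in this table. Over the whole table it had 440 UMIs, of which 50.7% were in the Sertoli gate, which held 3.57% of the barcodes. Its Sertoli level was 59.3 CPM (51.1 to 68.4) from 187 UMIs in 526 barcodes under suffix 1 and 13.95 CPM (9.77 to 19.3) from 36 UMIs in 482 barcodes under suffix 2. The 8 germ gates together had 0.413 CPM (0.299 to 0.557) from 43 UMIs under suffix 1 and 0.111 CPM (0.0572 to 0.193) from 12 UMIs under suffix 2. At the main settings the Sertoli level stood above every germ gate under each suffix, with no overlap of intervals. The nearest germ limit under suffix 2 was 8.58 CPM, in undifferentiated spermatogonia with 1 UMI. The Sertoli level was 143.5 times the germ level under suffix 1 (102.5 to 204.8) and 126.0 times under suffix 2 (64.1 to 266.1). The size of this ratio depended on the processing: it was 45.9 under suffix 1 and 47.9 under suffix 2 with barcodes of several gates kept, and 37.8 and 33.1 as UMIs per barcode. Without barcodes over 10% mitochondrial UMIs it was 49.9 under suffix 2.

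A called gene had to be 1.5-fold or more apart between 2 gates under each suffix separately, both times with the same gate higher. That gate had to hold at least 50 UMIs of it over both suffixes together. Gm2044 was called higher in Sertoli-gated than in all germ-gated barcodes, as were 6.52% of the 19633 genes with at least 20 UMIs. With median-of-ratios size factors in place of CPM, the log2 ratio of every gene in this comparison moved by -0.29 under suffix 1 and -0.32 under suffix 2. The share of called genes that were higher was then 34.5%, against 72.2% with CPM, and Gm2044 was called higher under both scalings. Against the round spermatid gate alone, the Sertoli level of Gm2044 was 133.1 times as high under suffix 1 and 151.3 times under suffix 2, where 15.4% of genes were called higher.

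**Figure D2:**
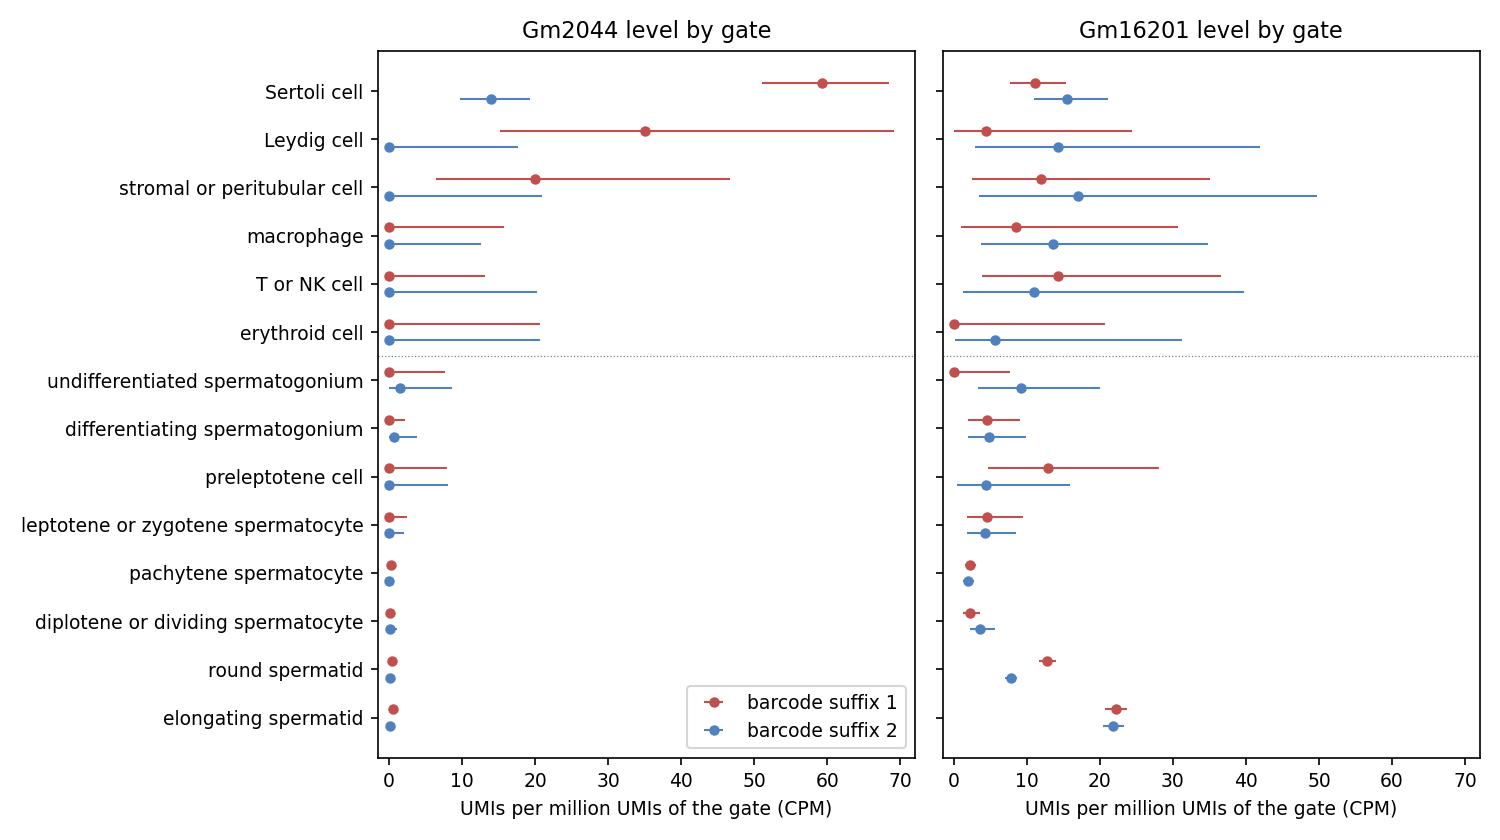
Levels of Gm2044 (left) and Gm16201 (right) in CPM (x axis) in 14 gates (y axis), under barcode suffix 1 (red) and suffix 2 (blue); points are pooled levels and bars exact 95% Poisson intervals. Gm2044 is highest in the Sertoli gate, at 59.3 CPM under suffix 1 and 13.95 CPM under suffix 2, and Gm16201 in the elongating spermatid gate, at 22.2 and 21.9 CPM. For Gm16201 the elongating interval overlaps those of the Leydig, macrophage, T or NK and stromal or peritubular gates under each suffix. Each of these gates held 1 to 4 of its UMIs per suffix.

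Among single Sertoli-gated barcodes, Gm2044 was sparse. Under suffix 1, 103 of 526 barcodes had a UMI, which is 19.6% (16.3 to 23.2%), and under suffix 2, 16 of 482 had one, which is 3.32% (1.91 to 5.34%). With every barcode thinned to 3000 UMIs, the expected shares were 12.25% under suffix 1 and 1.89% under suffix 2. Elongating spermatids, a type with little Gm2044, had a UMI in 0.848% of barcodes under suffix 1 and 0.0989% under suffix 2, at median depths of 12372 and 11889 UMIs against 4921 and 4311 UMIs in the Sertoli gate. Thinned, these germ shares were 0.194% and 0.0282%. The Sertoli shares were thus above those of a deeper cell type under both suffixes. Most positive barcodes held 1 UMI: 70 of the 103 under suffix 1 and 10 of the 16 under suffix 2. The highest held 26 and 8 UMIs under suffix 1, and 11 and 6 under suffix 2. Without these 2 barcodes of each suffix the Sertoli level was 48.8 CPM under suffix 1 and 7.45 CPM under suffix 2.

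The CPM of Gm2044 was higher the more of the 14 Sertoli markers a barcode contained. Under suffix 1 the level was 23.6 CPM in 214 barcodes with 5 to 6 markers, 45.5 CPM in 170 with 7 to 8, 68.2 CPM in 106 with 9 to 10 and 275.7 CPM in 36 with 11 to 14. Under suffix 2 it was 0, 6.64, 9.52 and 123.1 CPM in 215, 147, 93 and 27 barcodes. Both suffixes therefore ran in the same order. Under suffix 2, the bins of 7 to 8 and 9 to 10 markers held 5 UMIs each. Their intervals overlapped, at 2.16 to 15.5 and 3.09 to 22.2 CPM. Without the top 2 barcodes of each, these bins had 4.05 and 3.88 CPM, so their order is not settled. Barcodes with 11 to 14 markers held 67 of the 187 Sertoli-gate UMIs under suffix 1 and 26 of the 36 under suffix 2. In that bin, 2 barcodes held 34 of the 67 and 2 held 17 of the 26. Without these 2 barcodes of each suffix its level was 148.0 CPM under suffix 1 and 49.7 CPM under suffix 2. Per 1000 Sertoli marker UMIs, Gm2044 had 10.6, 10.7, 8.57 and 15.4 UMIs in the bins of suffix 1 and 0, 1.27, 1.13 and 6.24 in those of suffix 2, so that it did not rise steadily relative to the markers. Elongating spermatid markers made up 6.85, 7.77, 6.80 and 5.35% of the UMIs in these bins under suffix 1 and 7.29, 6.91, 7.38 and 4.19% under suffix 2.

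**Figure D3:**
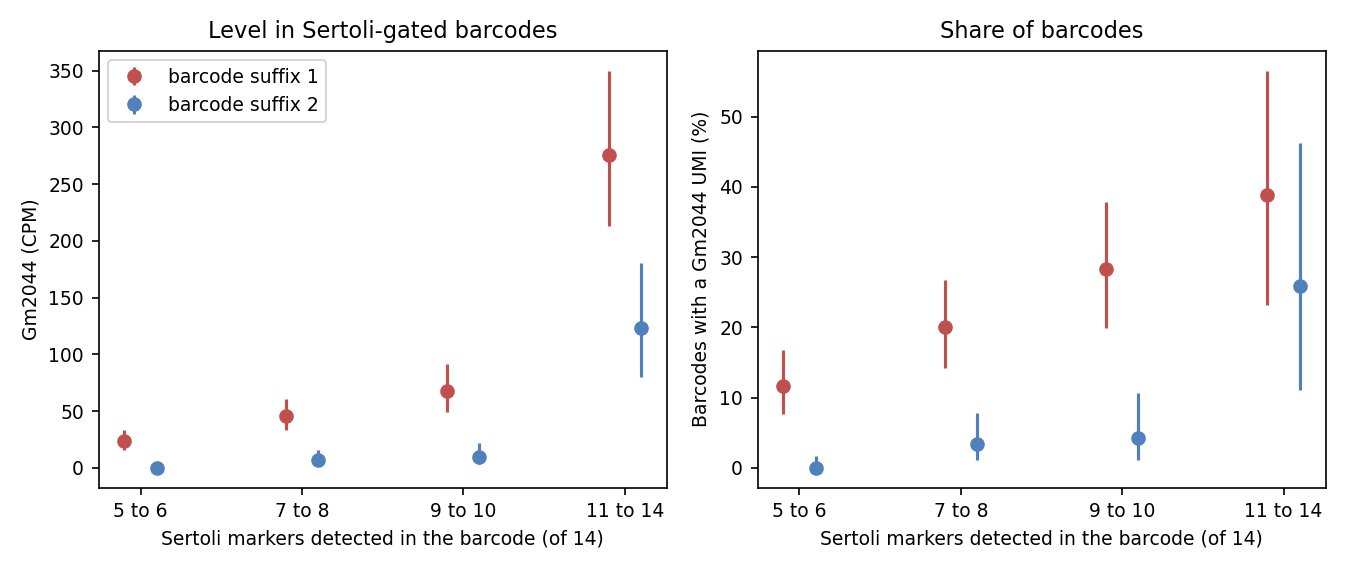
Gm2044 in Sertoli-gated barcodes, as CPM (left) and as the percentage of barcodes with a UMI (right), by the number of Sertoli markers detected (x axis), under suffix 1 (red) and suffix 2 (blue); bars are exact 95% intervals, Poisson on the left and Clopper-Pearson on the right. The level is 275.7 CPM under suffix 1 and 123.1 CPM under suffix 2 in barcodes with 11 to 14 markers, above every other bin of the same suffix.

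Other somatic gates were small. Leydig cells, which make testosterone, had 8 UMIs of Gm2044 in 5 of 39 barcodes under suffix 1, at 35.1 CPM (15.1 to 69.1), an interval that overlaps that of Sertoli cells. Under suffix 2 they had 0 UMIs in 40 barcodes, which allows up to 14.3 CPM (3 counts). Leydig-gated barcodes also carried Sertoli markers, at 1592 CPM under suffix 1 and 1442 CPM under suffix 2, against 5268 and 5903 CPM in the Sertoli gate, and the part of these in the Leydig value was not tested. The stromal or peritubular gate had 5 UMIs under suffix 1, all in 1 of 41 barcodes, and 0 in 34 under suffix 2. Macrophage, T or NK and erythroid gates had 0 UMIs of Gm2044 under both suffixes. Their upper limits (3 counts) of 10.2 to 16.8 CPM lie below the Sertoli level of suffix 1. Under suffix 2 the limits of 16.5 CPM in T or NK cells and 16.8 CPM in erythroid cells exceed the Sertoli level.

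In germ cells, Gm2044 was near the limit of detection. The gates from undifferentiated spermatogonia to zygotene spermatocytes had 0 UMIs under suffix 1 in 304 barcodes, which allows up to 0.717 CPM, and 2 UMIs under suffix 2 in 295 barcodes. Round spermatids had 17 UMIs under suffix 1 and 4 under suffix 2, and elongating spermatids had 21 and 4. Sertoli marker RNA was present in the same germ barcodes. Set against it, Gm2044 had 11.1 UMIs per 1000 Sertoli marker UMIs in all germ gates under suffix 1 and 2.94 under suffix 2, and in the Sertoli gate itself 11.3 under suffix 1 and 2.36 under suffix 2. Pooled over all germ gates, the proportion thus lay near that of the Sertoli gate under each suffix, but single gates differed. The proportions in round spermatids, 19.1 under suffix 1 and 5.35 under suffix 2, were the highest of the germ gates with at least 4 UMIs. Outside the Sertoli and spermatid gates Gm2044 had 18 UMIs under suffix 1, against 11.2 expected from the free RNA estimate that is set out with Gm16201, and 4 UMIs under suffix 2, against 1.49 expected. The Leydig and stromal or peritubular gates held 8 and 5 of the 18. Whether germ cells gave any of these UMIs was not tested.

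Gm2044 also had the highest ratio of suffix 1 to suffix 2 among the genes with at least 50 UMIs in the Sertoli gate. Its level under suffix 1 was 4.25 times that under suffix 2 (2.96 to 6.26). Of the 8898 genes with at least 50 UMIs in that gate, 2.73% were at least 1.5 times higher under suffix 1 and 2.06% at least 1.5 times lower. The central 95% of these genes ran from 0.682 to 1.52 with a median of 1.01, and 0 of the other genes reached the ratio of Gm2044. The 14 Sertoli markers had ratios from 0.732, in Cst12, to 2.02, in the transferrin gene Trf, with a median of 0.885, and Trf was the only one at least 1.5 times higher. Sox9 and Wt1, transcription factors that define the Sertoli lineage, had ratios of 0.948 (0.668 to 1.35) and 0.861 (0.623 to 1.19). Sertoli marker content therefore did not follow Gm2044 between the suffixes. Gm16201, on the opposite strand, had a ratio of 0.716 in the same barcodes (0.442 to 1.16).

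In the other gates with more than 3 of its UMIs under either suffix, Gm2044 was also higher under suffix 1. The factors varied. The interval included 1 in the pachytene gate, with 4 UMIs against 1. It also did so in the stromal or peritubular gate, with 5 UMIs, all in 1 barcode, against 0. The ratio was 3.74 over all germ gates (1.94 to 7.78), 4.83 in round spermatids (1.58 to 19.7), 5.85 in elongating spermatids (1.97 to 23.4) and 6.54 in barcodes of no gate (3.30 to 14.4). In the left-out barcodes of more than 1 class it was 24.0 (7.93 to 119.0), on 80 UMIs under suffix 1 and 3 under suffix 2. By Sertoli markers detected, Gm2044 in the Sertoli gate was at least 8.57-fold higher under suffix 1 at 5 to 6 markers, set against a floor of 3 counts. It was 6.85 times as high at 7 to 8 markers (2.73 to 22.1), 7.16 times at 9 to 10 (2.85 to 23.1) and 2.24 times at 11 to 14 (1.41 to 3.67). Over the whole Sertoli gate the ratio was 8.32 when barcodes over 10% mitochondrial UMIs were left out and 9.77 (5.13 to 20.9) when barcodes with 11 or more Sertoli markers were left out. With the barcode richest in Gm2044 left out under each suffix it was 5.27. Library and genotype cannot be told apart here, since there is 1 library per genotype.

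**Figure D4:**
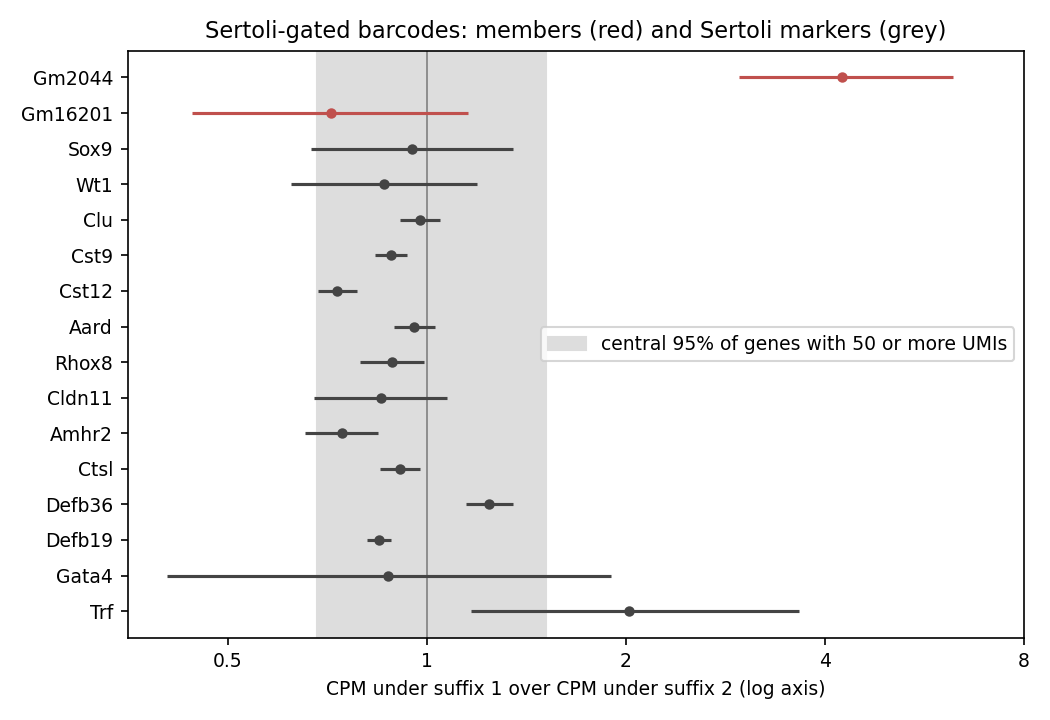
Ratio of CPM under suffix 1 to CPM under suffix 2 in Sertoli-gated barcodes (x axis, log scale) for Gm2044 and Gm16201 (red) and the 14 Sertoli markers (dark grey), with exact conditional binomial 95% intervals; the shaded band holds the central 95% of 8898 genes with at least 50 UMIs. Gm2044, at 4.25, lies outside the band that ends at 1.52.

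The genes with the pattern most like Gm2044 were ranked by Pearson correlation of log2(CPM + 10) over 28 points, 14 gates under each suffix, among 14551 genes outside the marker lists. The first 5 were Tmem255a (0.805), Gm14569 (0.801), Kctd14 (0.790), Inha (0.782) and Dtx1 (0.781). The points share libraries and free RNA, and the coefficients are descriptions. Inha, which encodes the alpha subunit of inhibin, a Sertoli hormone, had 116.7 CPM under suffix 1 and 116.2 CPM under suffix 2 in the Sertoli gate. Kctd14 had 32.7 CPM under suffix 1 and 43.4 CPM under suffix 2, and Tmem255a had 16.2 and 16.3 CPM. These 3 genes thus shared the Sertoli gate with Gm2044 without its difference between the suffixes.

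Of the Sertoli transcription regulators Sox9, Sox8, Wt1, Gata4, Gata1, Nr5a1, Dmrt1 and Rhox5, 4 were gate markers. These were Sox9, Wt1 and Gata4 for Sertoli cells and Dmrt1 for differentiating spermatogonia. Dmrt1 was not called, with a Sertoli level 0.825 times the germ level under suffix 1 (0.409 to 1.49) and 1.33 times under suffix 2 (0.718 to 2.25). Of the 4 that were not gate markers, 2 were called higher in the Sertoli gate than in all germ gates and 0 lower. Beside them, 6.52% of all genes were called higher and 2.51% lower. The median log2 ratio of the 4, taken on CPM + 10, was 0.94 under suffix 1 and 0.78 under suffix 2, beside 0.00 and 0.02 over all genes. Rhox5, a homeobox gene, had 49.1 CPM in the Sertoli gate and 0.404 CPM in germ gates under suffix 1, and 72.5 and 0.350 CPM under suffix 2. Gata1 had 11.4 and 0.288 CPM under suffix 1, and 10.1 and 0.203 CPM under suffix 2. Sox8 and Nr5a1 were also at least 1.5 times higher under both suffixes but had fewer than the 50 UMIs that the rule asks for.

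Among 13 genes of microRNA processing and silencing, 2 were called higher in the Sertoli gate than in germ gates and 0 lower, against the same 6.52% and 2.51% of all genes. Prkra, a partner of Dicer, had 53.9 CPM in Sertoli-gated and 16.8 CPM in germ-gated barcodes under suffix 1, and 61.2 and 13.02 CPM under suffix 2. Tnrc6b, a silencing partner of Argonaute, had 16.5 and 9.16 CPM under suffix 1, and 19.0 and 7.68 CPM under suffix 2. Tarbp2, the other Dicer partner, was not called, at 110.0 and 106.2 CPM under suffix 1 and 115.8 and 102.7 CPM under suffix 2. The median log2 ratio of the list was -0.02 under suffix 1 and 0.02 under suffix 2, close to that of all genes. With size factors, which lower the log2 ratio of every gene alike, Prkra was the only one called higher, and Ago1, Ago3, Ago4 and Tnrc6c were called lower, beside 4.92% of all genes higher and 9.35% lower. Of 8 host genes of other testis microRNAs, 6 were in the table and 5 were measured, and 0 of these were called in either direction. Mirg, the most abundant of them, had 9.20 CPM in the Sertoli gate and 10.4 CPM in germ gates under suffix 1.

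Gm16201 had another distribution. It was more abundant, with 4147 UMIs in the table, and 61.4% of these were in the round and elongating spermatid gates. These gates held 29.3% of the barcodes and 159627897 of the 327708213 UMIs of all genes. Over both suffixes their pooled Gm16201 level was 15.96 CPM, against 12.65 CPM in the whole table. Round spermatids alone had 10.2 CPM. The elongating spermatid level was 22.2 CPM (20.7 to 23.8) from 819 UMIs under suffix 1. Under suffix 2 it was 21.9 CPM (20.5 to 23.4) from 900 UMIs. Round spermatids had 12.8 CPM (11.7 to 13.97) from 488 UMIs under suffix 1 and 7.86 CPM (7.05 to 8.74) from 341 UMIs under suffix 2. Pachytene-gated barcodes had 2.23 CPM (1.58 to 3.04) from 39 UMIs under suffix 1 and 1.96 CPM (1.301 to 2.83) from 28 UMIs under suffix 2. These 3 levels followed the order of maturation under both suffixes, with no overlap of intervals. Earlier germ gates did not extend that order. From undifferentiated spermatogonia to zygotene spermatocytes, Gm16201 had 5.02 CPM (3.11 to 7.67) from 21 UMIs under suffix 1. Under suffix 2 these earlier gates had 5.24 CPM (3.32 to 7.86) from 23 UMIs. Pachytene levels were thus below those of the earlier gates under each suffix.

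The elongating level was 9.96 times the pachytene level under suffix 1 (7.23 to 14.1) and 11.2 times under suffix 2 (7.68 to 16.9). Gm16201 was called higher, as were 22.2% of genes. The round level was 5.74 times the pachytene level under suffix 1 and 4.01 times under suffix 2, and was called higher with 30.3% of genes. From round to elongating spermatids the increase was smaller: the elongating level was 1.74 times the round level under suffix 1 (1.55 to 1.95) and 2.79 times under suffix 2 (2.46 to 3.16), with 9.58% of genes called higher.

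The increase into elongating spermatids depended on the scaling. Elongating spermatid markers, among them protamine and transition protein genes, held 23.03% of elongating-gate UMIs under suffix 1 and 23.44% under suffix 2. The part of these RNAs in the dependence on scaling was not tested. With median-of-ratios size factors, log2 ratios of elongating over pachytene moved by 1.47 under each suffix, and those of elongating over round by 1.28 under suffix 1 and 1.33 under suffix 2. The share of called genes that were higher was then 50.4%, against 30.6% with CPM, over pachytene, and 61.5%, against 15.5% with CPM, over round. Gm16201 stayed called higher in both, at 27.5 and 30.9 times the pachytene level under suffixes 1 and 2 and 4.22 and 6.998 times the round level. Per barcode with no scaling, the elongating value was 3.14 and 3.72 times the pachytene value. Against round spermatids the direction turned under suffix 1, with 33.1 UMIs per 100 elongating barcodes and 39.1 per 100 round barcodes, a ratio of 0.845. Under suffix 2 it held, with 29.7 UMIs per 100 elongating barcodes and 22.6 per 100 round barcodes, a ratio of 1.31.

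Within the round spermatid gate, Gm16201 rose with the content of elongating spermatid markers. Barcodes were ordered by the share of their UMIs in the 12 elongating spermatid markers, among them the protamines. The part of free RNA or of mixed cells in this share was not tested. Under suffix 1 the level was 2.19 CPM below a share of 1%, 6.60 CPM from 1 to 1.5%, 16.2 CPM from 1.5 to 3%, 23.5 CPM from 3 to 6% and 26.8 CPM from 6 to 15%. Under suffix 2 it was 0.982, 4.32, 13.9, 14.9 and 23.2 CPM. Under each suffix the first bin was at or below the pachytene level, and the last was at or above the level of the elongating gate. Through that gate the level was flat: it was 20.2, 23.6 and 22.5 CPM in its 3 bins under suffix 1, and 21.1, 23.6 and 21.1 CPM under suffix 2.

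**Figure D5:**
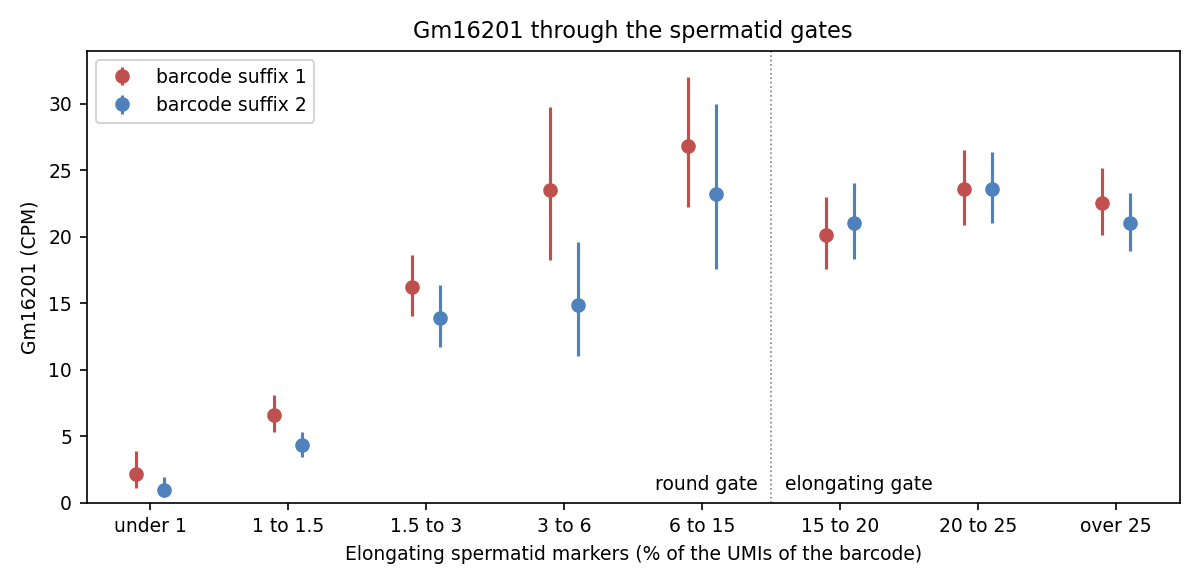
Gm16201 level (CPM, y axis) in spermatid-gated barcodes by the percentage of their UMIs in elongating spermatid markers (x axis), under suffix 1 (red) and suffix 2 (blue); bars are exact 95% Poisson intervals and the dotted line parts the round from the elongating gate. The level rises through the round gate to 26.8 CPM under suffix 1 and 23.2 CPM under suffix 2, and stays between 20.2 and 23.6 CPM in the elongating gate.

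Per barcode, Gm16201 was also sparse. A UMI was found in 26.4% of elongating barcodes under suffix 1 and 24.2% under suffix 2, and in 24.9% and 15.8% of round barcodes. Thinned to 3000 UMIs, the shares were 6.16% and 6.22% for elongating and 3.903% and 2.48% for round barcodes. Pachytene barcodes had 0.764% and 0.568% when thinned, against 10.0% and 7.41% before. Under suffix 1 the unthinned intervals of elongating (24.7 to 28.2%) and round barcodes (22.5 to 27.4%) overlapped, and the thinned shares are expected values without an interval. A single round barcode held at most 8 UMIs under each suffix, and a single elongating barcode at most 5.

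Between the suffixes, Gm16201 was alike in elongating spermatids, with a ratio of suffix 1 to suffix 2 of 1.01 (0.921 to 1.12). In that gate 3.16% of 13058 genes were at least 1.5 times higher under suffix 1 and 1.05% lower. In round spermatids the ratio was 1.63 (1.41 to 1.87), past the 1.5-fold mark with 7.04% of 14455 genes, while 1.43% were lower. The gate itself differed in marker share: 6.34% and 34% of round barcodes of suffix 1 fell in its first and second bins. Under suffix 2 these were 9.87% and 47.1%. From the lowest to the highest of the 5 bins the ratio was 2.23 (0.816 to 6.38), 1.53 (1.12 to 2.08), 1.16 (0.933 to 1.45), 1.58 (1.08 to 2.32) and 1.16 (0.839 to 1.61). Suffix 1 was thus higher in each bin, and 3 of the 5 ratios were above 1.5. With the bins given the same weights under both suffixes, by their total UMIs, the ratio of the summed levels was 1.31.

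Outside spermatids, Gm16201 was set beside an estimate of free RNA, the RNA of broken cells that any droplet can catch. The profile came from barcodes of no gate below 5000 UMIs, not from empty droplets, and was scaled on the protamine and transition protein RNAs of each gate. The 13 other gates had 121 UMIs of Gm16201 under suffix 1, against 123.9 expected, and 123 under suffix 2, against 115.0 expected. Single gates departed from this: diplotene or dividing spermatocytes had 16 UMIs against 16.8 expected under suffix 1, and 19 against 10 expected under suffix 2. In the Sertoli gate Gm16201 had 11.1 CPM from 35 UMIs under suffix 1, against 42.6 UMIs expected, and 15.5 CPM from 40 UMIs under suffix 2, against 33.5 expected. For Sertoli cells the estimate reached the whole of the UMIs of the gate, so it is an upper limit there. It was also high, under suffixes 1 and 2, in Leydig (85.57 and 77.37%), T or NK (97.97 and 74.2%) and erythroid cells (76.74 and 99.57%). These gates carry marker RNA of their own, so it is probably too high there too. Gm16201 had 13.49 and 12.97 CPM in the profile, close to its 12.65 CPM in the whole table over both suffixes. Totals near the expected ones therefore cannot show that these UMIs were free RNA. The source of the Gm16201 UMIs outside spermatids was not tested. By the same estimate Gm2044 in the Sertoli gate had 187 UMIs against 5.87 expected under suffix 1 and 36 against 0.612 expected under suffix 2. The elongating level of Gm16201 was 1.999 times the Sertoli level under suffix 1 (1.42 to 2.89) and 1.41 times under suffix 2 (1.03 to 1.99), which was not called, beside 7.96% of genes called higher. The 2 transcripts were seen together in 7 Sertoli barcodes under suffix 1 and 4 under suffix 2.

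The genes with the pattern most like Gm16201 over the same 28 points were 4930429C20Rik (0.878), Ccdc187 (0.845), Mcu (0.831), Fam110a (0.824) and Ubl3 (0.804). 4930429C20Rik had 89.6 CPM in elongating, 22.1 CPM in round and 4.85 CPM in pachytene barcodes under suffix 1, and 98.2, 16.8 and 6.08 CPM under suffix 2. Mcu, the pore of the mitochondrial calcium uniporter, had 36.8, 34.9 and 4.11 CPM under suffix 1, and 35.2, 25.1 and 4.41 CPM under suffix 2. Like Gm16201, both were lowest in the pachytene gate of these 3.

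The antisense neighbour of Gm16201 ran the other way. 6430531B16Rik had 27.7 CPM in elongating, 54.9 CPM in round and 238.3 CPM in pachytene barcodes under suffix 1, and 30.6, 66.4 and 231.6 CPM under suffix 2. Of these 3 gates, Gm16201 was lowest in the one where 6430531B16Rik was highest. The 2330-base transcript of Gm16201 shares 590 exon bases with 6430531B16Rik-201. A fall like that of 6430531B16Rik was common, since 50.3% of all genes were called lower in elongating barcodes. Tubgcp2, a subunit of the gamma-tubulin ring complex and a neighbour on the high-coordinate side, likewise had 13.6 CPM in elongating and 82.6 CPM in pachytene barcodes under suffix 1, and 13.3 and 81.7 CPM under suffix 2. Zfp511, farther on that side, had 23.8 and 79.3 CPM under suffix 1, and 24.4 and 74.2 CPM under suffix 2. In the Sertoli gate, 6430531B16Rik had 81.5 CPM under suffix 1 and 99.2 CPM under suffix 2, without the difference seen in Gm2044.

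On the other side, Utf1, a chromatin factor of undifferentiated spermatogonia that was also a marker of that gate, had 4.15 CPM there under suffix 1 and 24.6 CPM under suffix 2, from 2 and 16 UMIs. Kndc1 had 84 UMIs in the table. Adam8, whose end overlaps that of Gm16201, had 76. In the Sertoli gate Utf1 had 11 UMIs under suffix 1 and 8 under suffix 2, Kndc1 had 6 and 10, and Adam8 had 4 and 2, too few to set beside the ratio of Gm2044.

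In elongating over pachytene barcodes, 12 of the 13 microRNA processing and silencing genes were called lower and 1 higher, beside 50.3% of all genes lower and 22.2% higher. Their median log2 ratio was -1.23 under suffix 1 and -1.26 under suffix 2, against -0.21 for all genes under each suffix. Tarbp2 had 45.5 CPM in elongating and 221.8 CPM in pachytene barcodes under suffix 1, and 46.1 and 215.3 CPM under suffix 2. Tnrc6c, of the same family as Tnrc6b, had 18.4 and 197.6 CPM under suffix 1, and 17.5 and 188.1 CPM under suffix 2. Tnrc6b, the 1 gene called higher, had 7.29 and 2.17 CPM under suffix 1, and 5.15 and 3.29 CPM under suffix 2. With size factors 9 of the 13 were called lower and 1 higher, beside 33.3% of all genes lower and 33.8% higher; Drosha, Dicer1 and Prkra were then not called. Of the 3 microRNA host genes measured in this comparison, Mirg and Mir17hg were called lower, and with size factors Mir17hg alone. Mir17hg, the host of the miR-17 cluster, had 0.406 CPM in elongating and 10.2 CPM in pachytene barcodes under suffix 1, and 0.389 and 13.8 CPM under suffix 2. Gm16201, which spans the Mir202 hairpin only by an intron on the other strand, was called higher in the same comparison under both scalings.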

How the data were processed

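The deposited values are UMI counts, whole numbers for each gene in each barcode that had not been normalized, as the values show. Per the submitters' processing notes, the authors used Cell Ranger 1.3.1, Seurat 3.2.2 and GRCm38; the authors' barcode filter, strand setting and intron setting were not stated in the sources used here. The table's barcodes held 3529 to 244157 UMIs, with at most 20.0% mitochondrial UMIs.

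Gates used marker genes only, never the rows of Gm2044 or Gm16201. A barcode passed with at least 5 of 14 Sertoli markers or at least 4 markers of another somatic class (3 for endothelial cells). Round spermatids needed 11 of 12 markers, and elongating spermatids at least 15% of UMIs in their 12 markers. At the Sertoli cutoff stood 229 barcodes, and 473 had 1 marker fewer. The cutoffs were set after the marker values had been seen. Other germ gates combined marker numbers and summed shares, with clauses that part neighbouring stages. Barcodes passing several gates were left out in place of a doublet caller, so doublets may remain.

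UMIs were summed per gate and suffix. Thinned shares are the expected share of barcodes with a UMI at 3000 UMIs, and no barcode was shallower. A gene at 0 was set at 3 counts. Python 3.11.15, NumPy 2.4.6, SciPy 1.17.1 and pandas 2.3.3 were used, and the size rule and intervals were tested on simulated data. The designed rule named both transcripts in every gate, the 2 nearest genes on each side, overlapping genes, the 5 most similar genes for each and members of 3 gene lists. The most abundant list members were meant to be named; members called were named too, after their values were seen. The transcripts and lists were chosen with earlier results of these data known. A listed gene is not reported here, and the counts and median of its list leave it out.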

Additional observations from a re-analysis of the deposited data

Results flagged for a closer look

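Both transcripts had UMIs in barcodes that entered no comparison, above the limit of 3 counts. In barcodes that passed no gate, Gm2044 had 56 UMIs under suffix 1 and 10 UMIs under suffix 2, and Gm16201 had 561 UMIs under suffix 1 and 595 UMIs under suffix 2. The Gm16201 level there was 13.1 CPM under suffix 1 and 11.9 CPM under suffix 2. Gm2044 stood at 12.4 UMIs per 1000 Sertoli marker UMIs under suffix 1 and 2.32 under suffix 2.

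In the barcodes left out because they passed gates of more than 1 class, Gm2044 had 80 UMIs under suffix 1, and Gm16201 had 123 UMIs under suffix 1 and 76 UMIs under suffix 2. Of the 80 Gm2044 UMIs, 18 were in 1 barcode that passed the Sertoli, Leydig and stromal gates, and 7 were in 1 barcode that passed the Sertoli and Leydig gates. Under suffix 2, Gm2044 had 3 UMIs in such barcodes, which does not pass that limit.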

How the results depend on the processing

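No paired analysis was possible because the table gives 1 library per suffix and no replicate. Over 13 alternative settings, 89 of 121 recomputed values kept their direction and were not counted as moved, and 8 of the 31 that moved were single levels. A value not counted as moved could still differ in size. Where suffixes 1 and 2 are both given, suffix 1 is first. Gm2044 in Sertoli over germ gates was 45.9 and 47.9 with barcodes of several gates kept, 37.8 and 33.1 per barcode, and under suffix 2 49.9 without barcodes over 10% mitochondrial UMIs. Gm16201 in elongating over pachytene gates was 27.5 and 30.9 with size factors and 3.14 and 3.72 per barcode. Under suffix 1 it was 16.1 with stricter cutoffs and 55.9 with free RNA subtracted, and under suffix 2 7.28 with looser cutoffs; free RNA subtraction left 0 pachytene UMIs under suffix 2 and so gave no ratio. Elongating over round was 1.47 and 1.96 with stricter cutoffs, 4.22 and 6.998 with size factors, and per barcode 0.845, a turned direction, and 1.31. Between the suffixes, Gm2044 in the Sertoli gate was 8.32 without barcodes over 10% mitochondrial UMIs and 9.77 without those of 11 or more Sertoli markers; Gm16201 in the round gate was 1.40 with stricter cutoffs and 1.31 as a ratio of levels with bins of marker share weighted alike. The 2 settings by marker number or bin were chosen after seeing the data, as was leaving out the top Gm2044 barcode of each suffix, which gave 5.27, or its top 2 barcodes. Genes called in Sertoli over germ gates numbered 1773, against 2802 with size factors and 2741 from suffix 2 alone. From suffix 1 alone they numbered 2482, which was not counted as moved. Where no other cause is stated, the cause was not tested. Depth limits Gm2044 outside the Sertoli gate, where most gates had 0 to 8 UMIs per suffix.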
